A study of Homo sapiens with 4 samples.

Results

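The Nodal pathway genes described here are GDF3, a ligand that is also known to inhibit BMPs, TDGF1, the co-receptor also called Cripto, LEFTA, a secreted inhibitor of Nodal, and FST (follistatin), a secreted inhibitor that binds activin. They were read with 5 probes, 1 each for GDF3, TDGF1 and LEFTA and 2 for FST, out of 47289 gene probes on the array. The genes were picked by pathway with earlier results of these data known, and the probe names came from the study's list of genes changed on these arrays, so the members are not an unselected set. All 5 probes passed the filter on dim probes, as did 12374 probes in all. The FST probes differ in what they recognise: 1 is designed for the FST gene in common (listed as transcript variant FST344) and the other for the transcript variant FST317.

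NCCIT is a human embryonal carcinoma cell line, that is, a line of malignant germ cell origin that grows in an undifferentiated state similar to that of embryonic stem cells. Cells were transfected with esiRNA, a pool of short double-stranded RNAs made by digesting a long one, against the mRNA of OCT4 (the gene POU5F1), NANOG or SOX2, and were collected at day 2.5. The mock cells received the transfection reagent Hyperfect and no esiRNA, so that in each comparison with mock the silencing of the factor and the presence of esiRNA cannot be told apart. All groups were the same line in the same serum-containing medium, and each of the 4 groups was measured on 3 arrays that the labels describe as biological replicates, 12 arrays in all. Whether the replicate cultures were started on separate days is not given in the sources used here, so the p-values measure the spread between these arrays.

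Nodal, activin and some related ligands such as GDF3 bind activin receptors on the cell surface, and the receptors phosphorylate SMAD2 and SMAD3, which enter the nucleus with SMAD4 and act with partners such as FOXH1. Nodal needs an EGF-CFC co-receptor such as TDGF1 to signal, whereas activin does not. LEFTA and its paralog LEFTB are themselves transcriptional targets of the pathway and block Nodal at the receptor complex, and follistatin captures activin before it reaches its receptor. In human embryonic stem cells this branch is known for sustaining the undifferentiated state. GDF3 and TDGF1 are widely used as markers of that state. For embryonal carcinoma cells the study reports the genes of Nodal and activin A as weakly expressed or not expressed. It could not amplify FOXH1 from their cDNA. From this the study proposes that TGF-beta signalling does not contribute to self-renewal of NCCIT cells, unlike embryonic stem cells in serum replacement medium. The study adds that this needs further testing.

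The esiRNA pools were defined by the primers that bound each target stretch, shown here because they set which mRNA was attacked. Each line gives the forward and then the reverse primer, 5′ to 3′, without the added RNA polymerase promoter. Of the NANOG pools, the labels do not say which was used on these arrays.
OCT4 forward: gagaaggagaagctggagca
OCT4 reverse: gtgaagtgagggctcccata
SOX2 forward: catcacccacagcaaatgac
SOX2 reverse: ggaaagttgggatcgaacaa
NANOG first pool, forward: aactggccgaagaatagcaa
NANOG first pool, reverse: ctcgctgattaggctccaac
NANOG second pool, forward: gactgagctggttgcctcat
NANOG second pool, reverse: tctggaaccaggtcttcacc

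The promoters of the members that the reference holds are shown next, as the 250 bases before each annotated start, 5′ to 3′ on the strand of the gene, from RefSeq on GRCh38.p14. They are GDF3 at chr12:7695776-7696025 on the minus strand, FST at chr5:53480379-53480628 on the plus strand, and the separate starts of TDGF1 (now named CRIPTO) at chr3:46574285-46574534 and chr3:46577538-46577787, both on the plus strand. They are given because GDF3 and TDGF1 were lower in every knock-down on average while FST was higher in one of them. Capitals mark matches, on either strand, to the SOX core letters ACAAAG or CATTGT, the only searched motifs that occurred.
GDF3: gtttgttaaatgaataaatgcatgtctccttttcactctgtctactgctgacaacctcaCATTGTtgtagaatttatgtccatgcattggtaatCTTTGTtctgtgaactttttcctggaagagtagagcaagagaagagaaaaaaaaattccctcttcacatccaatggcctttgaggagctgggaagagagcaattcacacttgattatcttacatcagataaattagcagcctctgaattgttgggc
TDGF1, upstream start: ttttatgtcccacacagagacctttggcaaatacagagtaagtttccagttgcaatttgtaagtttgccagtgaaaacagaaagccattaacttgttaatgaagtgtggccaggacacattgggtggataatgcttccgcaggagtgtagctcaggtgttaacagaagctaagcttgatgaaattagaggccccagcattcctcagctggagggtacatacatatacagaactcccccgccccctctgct
TDGF1, downstream start: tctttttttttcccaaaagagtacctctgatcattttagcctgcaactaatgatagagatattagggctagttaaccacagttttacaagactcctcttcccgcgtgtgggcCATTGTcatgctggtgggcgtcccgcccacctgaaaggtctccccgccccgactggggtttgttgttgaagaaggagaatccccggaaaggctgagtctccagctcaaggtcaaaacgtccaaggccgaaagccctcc
FST: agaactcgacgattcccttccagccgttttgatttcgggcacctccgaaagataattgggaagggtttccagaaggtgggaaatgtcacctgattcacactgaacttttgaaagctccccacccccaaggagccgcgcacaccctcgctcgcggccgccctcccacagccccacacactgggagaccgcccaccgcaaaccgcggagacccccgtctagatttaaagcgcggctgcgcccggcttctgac
The octamer ATTTGCAT, which OCT4 can bind, had no match in these 4 windows, and 1.63% of 35116 promoters of the same length hold it. The GDF3 window held CATTGT from 191 to 186 bases before the start and ACAAAG on the other strand from 156 to 151 bases before it. The downstream TDGF1 window held CATTGT from 138 to 133 bases before the start. Over all promoters, 13.7% hold ACAAAG and 9.29% hold CATTGT, so such short matches are common. The SMAD letters CAGACA (13.6% of all promoters) and GTCTAGAC (0.182%) and the FOXH1 letters AATCCACA (0.709%) and AATACACA (0.666%) had no match in any of the 4 windows. A match is a run of letters and not a measured site. LEFTA was matched to RefSeq as LEFTY2 by its accession, and its promoter is not shown here.

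Levels below are normalised intensities, background-corrected and scaled so that arrays are comparable, on a linear scale that includes a constant offset of 16. They are compared between groups for the same probe, and the level of one probe says nothing of the level of another. Each array detected between 11196 and 12858 of the gene probes, the 3 arrays of a group correlated at 0.992 to 0.997, and no array stood apart from its group. The groups differed in raw brightness, and the normalisation removes this. The raw background level was 92.5 to 99.8 on mock arrays and 110 to 118 with OCT4 silenced. It was 98 to 104 with NANOG silenced and 104 to 110 with SOX2 silenced. A probe can therefore be lower after normalisation though its raw signal is not. A probe was called changed when limma's Benjamini-Hochberg adjusted p was under 0.01 and the change was at least 1.5-fold.

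The targeted genes were read first. The POU5F1 probe was at 557 to 669 in mock cells, at 26.6 to 39.8 in the OCT4 knock-down and at 28.2 to 32.1 in the SOX2 knock-down, where no array detected it. In the NANOG knock-down it was at 438 to 488, a log2 difference from mock of -0.42 (limma adjusted p = 0.0278), which was not called. The NANOG probe was at 320 to 363 in mock cells and at 89.7 to 101 in the NANOG knock-down, a fall of 3.6-fold. It was not detected on any array of the OCT4 knock-down (28.4 to 31.8) or of the SOX2 knock-down (23.8 to 31.7). The SOX2 probe could not be named from the sources used here and was not analysed here, so the SOX2 label has no check of its own on these arrays. The study gives SOX2 as undetected on its arrays and followed it by real-time PCR instead. NANOG therefore was lower in all 3 knock-downs, and its probe was dimmer with OCT4 or SOX2 silenced than with its own esiRNA.

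GDF3, the ligand, was bright in mock cells and almost lost with OCT4 or SOX2 silenced. Its normalised intensity was 3400, 3280 and 3400 on the mock arrays, 82.3, 73.2 and 95.2 in the OCT4 knock-down, 1390, 1310 and 1310 in the NANOG knock-down, and 59, 62.5 and 78.2 in the SOX2 knock-down. The mock arrays were the highest, the NANOG knock-down arrays lay between, and no knock-down array overlapped a mock array. GDF3 fell by 5.34 on the log2 scale in the OCT4 knock-down (SE 0.112, 40.4-fold, limma adjusted p = 4.17e-12). In the SOX2 knock-down it fell by 5.67 (SE 0.112, 50.8-fold, limma adjusted p = 2.93e-12). In each of these comparisons it had the 2nd lowest log2 change of the 12374 probes. In the NANOG knock-down it fell by 1.33 (SE 0.112, 2.52-fold, limma adjusted p = 3.89e-06), the 58th lowest change of that comparison.

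TDGF1, the co-receptor, fell with OCT4 or SOX2 silenced, by less than GDF3 on the log2 scale. Its normalised intensity was 6660, 6940 and 6990 in mock cells, 1250, 1010 and 1130 in the OCT4 knock-down, 5100, 4790 and 5550 in the NANOG knock-down, and 1050, 1050 and 828 in the SOX2 knock-down. The NANOG knock-down arrays were all below the mock arrays and far above those of the other knock-downs. TDGF1 fell by 2.61 on the log2 scale in the OCT4 knock-down (SE 0.107, 6.1-fold, limma adjusted p = 9.76e-10). In the SOX2 knock-down TDGF1 fell by 2.82 (SE 0.107, 7.08-fold, limma adjusted p = 4.33e-10). The difference of the NANOG knock-down from mock was -0.42 (95% interval -0.65 to -0.19, limma adjusted p = 0.0116), which did not pass the threshold. The TDGF1 probe may also detect transcripts of the near-identical copy CRIPTO3, since the letters of the probes were not used here.

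LEFTA, the Nodal inhibitor, went the opposite way to the ligand and the co-receptor. Its normalised intensity was 42.5, 51.4 and 42.3 in mock cells, where 1 of 3 arrays detected it. It was 1510, 1630 and 1520 in the OCT4 knock-down, 219, 222 and 224 in the NANOG knock-down and 1590, 1560 and 1670 in the SOX2 knock-down, with every array above every mock array. LEFTA was thus near background in mock cells and clearly present in all 3 knock-downs, at an intermediate level with NANOG silenced. It was 34.4-fold higher in the OCT4 knock-down (log2 change 5.10, SE 0.081, limma adjusted p = 8.14e-13), the 10th highest change of all probes tested. In the SOX2 knock-down it was 35.6-fold higher (5.15, SE 0.081, limma adjusted p = 7.78e-13), the 9th highest. In the NANOG knock-down it was 4.91-fold higher (2.29, SE 0.081, limma adjusted p = 5.13e-09), the 3rd highest change of that comparison. LEFTA passed the filter through the knock-downs, where every array detected it, and not through mock cells, so the filter favoured a difference. Because the mock level is close to background and includes the offset, these folds and ranks depend on the background treatment.

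The paralog LEFTB, which blocks Nodal in the same way and lies near LEFTA on chromosome 1, did not rise. Its normalised intensity was 80.6 to 93.6 in mock cells, 41.8 to 45.7 in the OCT4 knock-down, 49.7 to 63 in the NANOG knock-down and 48.4 to 61.3 in the SOX2 knock-down. It was dim on all arrays, and after normalisation each knock-down lay below mock without overlap. Its raw signals were 143 to 154.6 in mock cells, 148.2 to 154.8 with OCT4 silenced and 145.6 to 155.4 with SOX2 silenced, which overlap. Only those with NANOG silenced (131 to 136.3) lay below mock. The falls with OCT4 and SOX2 silenced thus rest on the correction for background and brightness. The log2 change of LEFTB was -0.97 with OCT4 silenced, -0.68 with NANOG silenced and -0.61 with SOX2 silenced, and all 3 were called. The call in the SOX2 knock-down was lost without mock replicate 1 (-0.56) or without SOX2 knock-down replicate 1 (-0.50) and with median (-0.56) or rank-invariant scaling (-0.47), and all 3 fell short of the fold limit with a floor of 50. LEFTA and LEFTB mRNAs are near-identical over much of their length, and how far either probe detects the other transcript was not tested.

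**Figure D1:**
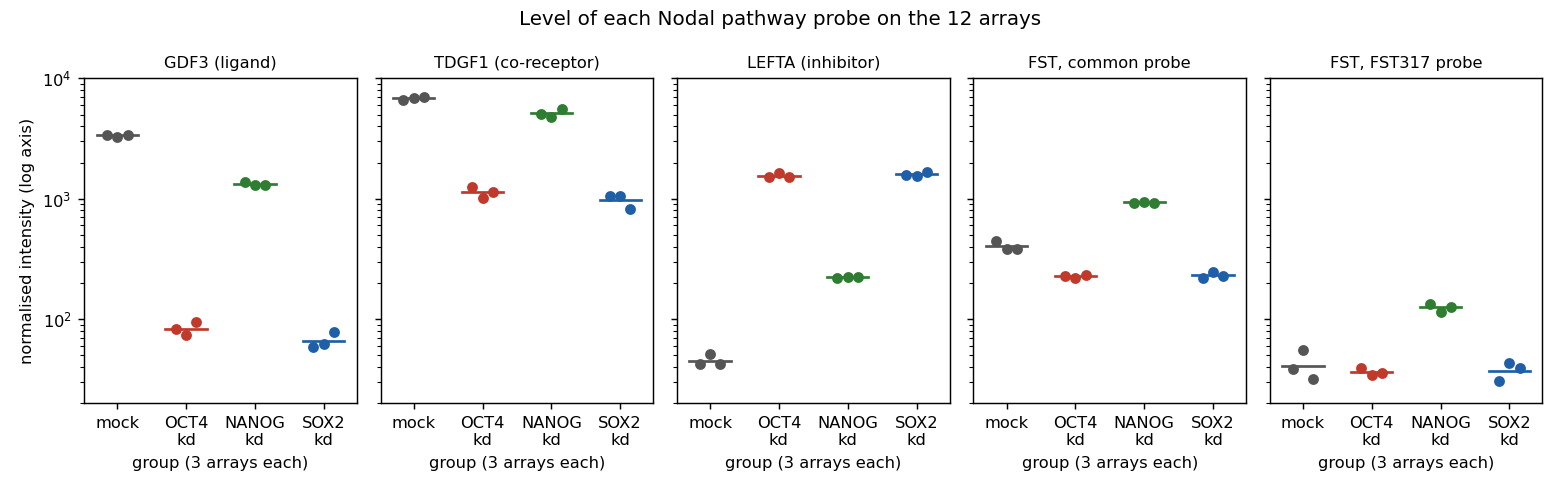
Normalised intensity (log axis) of the 5 probes on each of the 12 arrays, by group, with a bar at the geometric mean of 3 arrays. GDF3 and TDGF1 are highest in mock cells, LEFTA is lowest there, and both FST probes are highest in the NANOG knock-down, where the common probe reads 929 to 940.

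FST was the member whose direction differed between the knock-downs. The common FST probe read 449, 381 and 382 in mock cells, 229, 220 and 231 in the OCT4 knock-down, 931, 940 and 929 in the NANOG knock-down, and 219, 247 and 229 in the SOX2 knock-down. In normalised intensity the NANOG knock-down arrays were all above mock, and those of the OCT4 and SOX2 knock-downs were all below it. The raw signals were 364.7 to 431 in mock cells and 379.3 to 439.2 in the OCT4 knock-down, and these overlap. On the log2 scale the common FST probe fell by 0.83 with OCT4 silenced (SE 0.078, 1.78-fold, limma adjusted p = 2.09e-06) and fell by 0.80 with SOX2 silenced (SE 0.078, 1.74-fold, limma adjusted p = 2.8e-06). The fall with OCT4 silenced thus rests on the normalisation. Under the alternatives that kept all arrays, which also normalise, it ran from -0.87 to -0.73. With NANOG silenced the common FST probe rose by 1.21 (SE 0.078, 2.32-fold, limma adjusted p = 4.13e-07), the 110th highest change of that comparison.

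The FST317 probe was dim, and it passed the filter only through the NANOG knock-down, where all 3 arrays detected it, so that a difference there was built into its presence among the tested probes. Its normalised intensity was 38.4, 55.5 and 31.7 in mock cells, 39, 34.6 and 35.5 in the OCT4 knock-down, 133, 115 and 127 in the NANOG knock-down, and 30.8, 42.9 and 39.1 in the SOX2 knock-down. In each of the other 3 groups 1 of 3 arrays detected it, and those groups overlapped. It rose by 1.62 on the log2 scale in the NANOG knock-down (SE 0.176, 3.06-fold, limma adjusted p = 3.41e-05). The values with OCT4 silenced (-0.16, 95% interval -0.55 to 0.22) and with SOX2 silenced (-0.13, 95% interval -0.51 to 0.25) were not called. The log2 signal of the common probe minus that of FST317 averaged 3.31 (SD 0.46) in mock cells, 2.64 (SD 0.08) in the OCT4 knock-down, 2.90 (SD 0.12) in the NANOG knock-down and 2.63 (SD 0.17) in the SOX2 knock-down. Against mock this difference between the probes moved by -0.66, -0.40 and -0.67 with OCT4, NANOG and SOX2 silenced. An exact two-sided permutation test gave p = 0.1, 0.4 and 0.2, and since 0.1 is the smallest p that 3 against 3 arrays allow, it could not pass the threshold. With FST317 detected on 1 of 3 arrays in 3 of the groups, whether the FST probes respond differently cannot be told from these values.

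Taking the 5 probes by comparison, 3 were called lower and 1 higher in the OCT4 knock-down, where 24.3% of all probes tested were called (10.7% lower and 13.6% higher). In the SOX2 knock-down 3 were called lower and 1 higher, against 23.6% of all probes (10.3% lower and 13.3% higher). In the NANOG knock-down 1 was called lower and 3 higher, of which FST317 had entered the test through that group, against 8.63% of all probes (4.02% lower and 4.61% higher). The arrays of knock-down and mock did not overlap for 4 of the 5 probes with OCT4 silenced, for 5 with NANOG silenced and for 4 with SOX2 silenced, where 63.6%, 44.1% and 59.8% of all probes tested did not overlap. The 3 comparisons use the same mock arrays. Under median scaling the OCT4 comparison's calls were 44.5% higher rather than 56.1%, the NANOG comparison's 44.7% rather than 53.4%, and the median of all probes in the OCT4 comparison moved to -0.12, which is small beside the members' changes. Under rank-invariant scaling the calls were 63.8% higher in the SOX2 comparison and 65.7% higher between SOX2 and NANOG knock-downs, rather than 56.2% and 55%.

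The knock-downs were then compared with each other, which sets cells against cells that all received esiRNA, with the spread still estimated over all 12 arrays. Between the OCT4 and NANOG knock-downs all 5 probes were called (FST317, which entered through the NANOG knock-down, among them), 4 lower and 1 higher with OCT4 silenced, where 21% of all probes were called (9.19% lower and 11.8% higher). The arrays did not overlap for any of the 5, nor for 60.5% of all probes. GDF3 was 16-fold lower with OCT4 silenced than with NANOG silenced (log2 difference -4.00, SE 0.112, limma adjusted p = 5.76e-11). TDGF1 was 4.56-fold lower (-2.19, SE 0.107) and LEFTA was 7-fold higher (2.81, SE 0.081). The common FST probe was 4.11-fold lower (-2.04, SE 0.078) and FST317 was 3.43-fold lower (-1.78, SE 0.176).

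The SOX2 knock-down differed from the NANOG knock-down in the same members, with 4 lower and 1 higher of 5, where 20.9% of all probes were called (9.41% lower and 11.5% higher). FST317, counted among the lower ones, had entered the test through the NANOG knock-down, so the filter favoured its difference. Again the arrays of all 5 did not overlap, nor did those of 57.6% of all probes. GDF3 was 20.2-fold lower with SOX2 silenced than with NANOG silenced (-4.33, SE 0.112, limma adjusted p = 3.1e-11). TDGF1 was 5.3-fold lower (-2.41, SE 0.107), LEFTA was 7.25-fold higher (2.86, SE 0.081), and the FST probes were 4.04-fold (-2.01, SE 0.078) and 3.35-fold (-1.74, SE 0.176) lower. This comparison and the one before it share the NANOG knock-down arrays.

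Between the OCT4 and SOX2 knock-downs none of the 5 probes was called and the arrays overlapped for all of them, where 16.7% of all probes did not overlap. The log2 difference of OCT4 knock-down minus SOX2 knock-down was 0.33 for GDF3 (95% interval 0.09 to 0.57, limma adjusted p = 0.327), with GDF3 slightly higher with OCT4 silenced. It was 0.21 for TDGF1 (-0.02 to 0.45), -0.05 for LEFTA (-0.23 to 0.13), -0.03 for the common FST probe (-0.20 to 0.14) and -0.04 for FST317 (-0.42 to 0.35). No interval reached a 1.5-fold difference. Of all 12374 probes limma called 0 in this comparison (0%), while 1210 had an unadjusted p under 0.05 and the equal-variance test of the study's methods, at its p under 0.01 without adjustment and 1.5-fold, called 40.

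**Figure D2:**
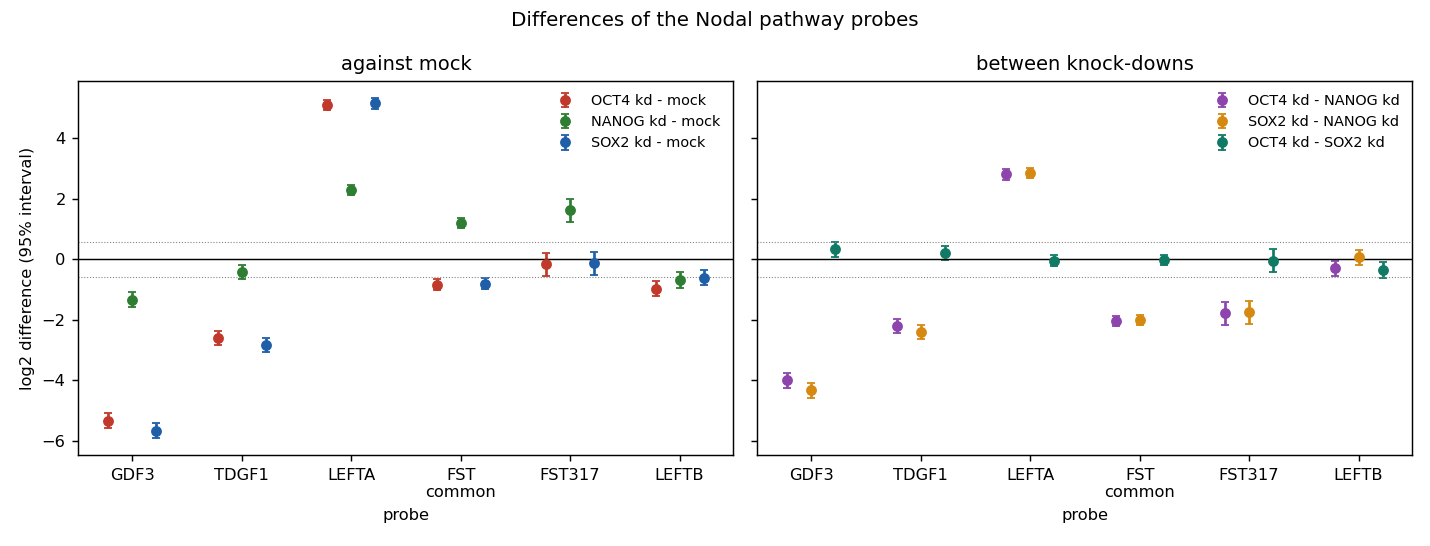
Log2 differences of the 5 member probes and LEFTB, with 95% intervals from the limma fit, each knock-down against mock (left) and between knock-downs (right); dotted lines mark 1.5-fold. FST is on opposite sides of 0 in the NANOG knock-down (1.21) and the OCT4 knock-down (-0.83), and the OCT4 minus SOX2 values run from -0.35 (LEFTB) to 0.33 (GDF3).

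By level, mock cells came first for GDF3 and TDGF1, then the NANOG knock-down, then the OCT4 and SOX2 knock-downs, and the last pair did not differ by enough to be called, though the interval for GDF3 left out 0. For TDGF1 the step from mock to the NANOG knock-down was not called either. For LEFTA the order was turned, with the OCT4 and SOX2 knock-downs first, the NANOG knock-down next and mock cells last. For the common FST probe the NANOG knock-down came first, mock cells next and the OCT4 and SOX2 knock-downs last, again without a called difference between the last pair. For FST317 the NANOG knock-down was the highest and the other 3 groups did not differ beyond their spread.

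The other genes of the pathway were taken from a list of 47 Nodal and activin genes, of which 13 could be named, with 14 probes. The names come from the study's list of genes changed in the OCT4 or NANOG knock-down, so the named probes had been chosen on these arrays and their counts are not independent evidence of a direction. NODAL itself, the activin receptors, SMAD2, SMAD4 and FOXH1 had no named probe and were not analysed here. With the members and LEFTB included, 6 of 14 probes were called higher and 6 lower in the OCT4 knock-down, 4 and 3 in the NANOG knock-down, and 5 and 6 in the SOX2 knock-down. Of all probes tested, 13.6% were called higher and 10.7% lower with OCT4 silenced. The shares were 4.61% and 4.02% with NANOG silenced, and 13.3% and 10.3% with SOX2 silenced. The median log2 change of the 14 probes was -0.22, -0.08 and -0.29 in the 3 knock-downs, where the median over all probes tested was within 0.05 of 0.

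Among the ligands, INHBE, an inhibin beta subunit that can form activin E, was 296 to 327 in mock cells, 55 to 56.5 with OCT4 silenced, 54.1 to 70.7 with NANOG silenced and 52.8 to 59.6 with SOX2 silenced. The log2 changes were -2.48, -2.29 and -2.49, all called, and the arrays of the NANOG knock-down overlapped those of the other knock-downs, unlike for GDF3. FURIN, a protease that cleaves Nodal family precursors, rose by 0.59 in the OCT4 knock-down and by 0.83 in the SOX2 knock-down and read -0.08 in the NANOG knock-down. The OCT4 call of FURIN lay at the fold limit: it was lost in 6 of the 12 fits that leave out 1 array, for example without OCT4 knock-down replicate 1 (0.58), and with median scaling (0.58).

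Among receptors and mediators, TGFBR3 (betaglycan), a co-receptor for TGF-beta and inhibins, rose by 0.60 in the NANOG knock-down and was at -0.28 and -0.44, not called, in the OCT4 and SOX2 knock-downs. Its NANOG call was lost without mock replicate 3 (0.56) or NANOG knock-down replicate 1 (0.57). SMAD3, which carries the signal to the nucleus, rose by 0.84 in both the OCT4 and the SOX2 knock-down, from 810 to 921 in mock cells to 1460 to 1600 and 1520 to 1560. With NANOG silenced it was at 959 to 1040, a change of 0.22 that was not called. SMURF2, a ubiquitin ligase that limits SMAD signalling, rose by 0.62 and 0.68 with OCT4 and SOX2 silenced, and both calls were lost without mock replicate 1 (0.49 and 0.55). The OCT4 call of SMURF2 was also lost without OCT4 knock-down replicate 1 (0.55).

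Among inhibitors and repressors, FSTL1, a follistatin-like secreted glycoprotein, rose 7.95-fold in the OCT4 knock-down and 8.12-fold in the SOX2 knock-down, from 98.9 to 123 in mock cells to 838 to 904 and 826 to 917. With NANOG silenced it read 73.7 to 88.2, a log2 change of -0.46 that was not called, and this is the reverse of the pattern of FST. TGIF2, a nuclear repressor of SMAD-driven transcription, was called lower with OCT4 silenced (-0.71) and with SOX2 silenced (-0.64) and was at -0.14 with NANOG silenced. SKI, another repressor of SMAD-driven transcription, was not detected on any mock array (36.2 to 45.7) and read 59.7 to 71.6 in the OCT4 knock-down, where it was called. SKI passed the filter through the knock-downs, so the filter favoured a difference. SKI read 47.5 to 63.6 with NANOG silenced (0.46) and 54.3 to 66.6 with SOX2 silenced (0.54), and neither was called. The SOX2 value was called with background subtraction and a floor of 20 or 10 (0.80), without mock replicate 1 (0.63) and without SOX2 knock-down replicate 2 (0.60). The OCT4 call was lost with median scaling (0.42), rank-invariant scaling (0.53), a floor of 50 (0.06), without mock replicate 3 (0.58) and without OCT4 knock-down replicate 2 (0.57).

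**Figure D3:**
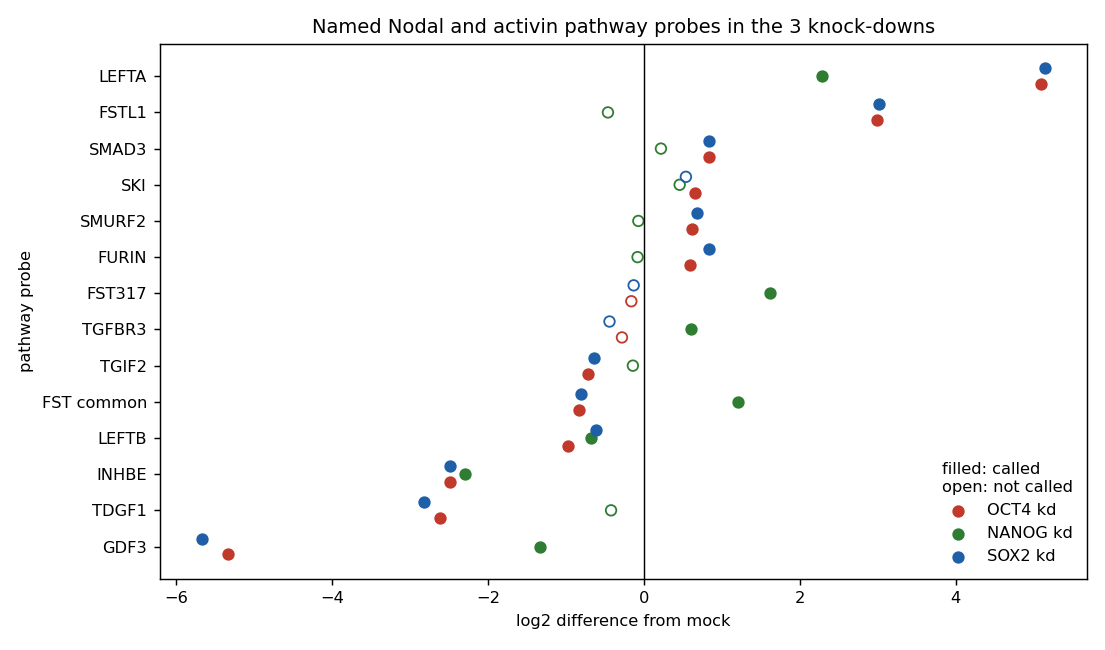
Log2 difference from mock (horizontal axis) of the 14 named pathway probes in each knock-down, filled where called and open where not. GDF3, for example, is at -5.34 with OCT4 silenced, -5.67 with SOX2 silenced and -1.33 with NANOG silenced, and both FST probes and TGFBR3 are called higher only with NANOG silenced.

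For each member the 5 probes whose log2 pattern over the 12 arrays was most like its own, by Pearson correlation among 12368 probes, were read as a description. The 12 arrays hold only 4 groups, so each correlation rests mainly on 4 group levels and ignores the size of the change. For GDF3 they were HAS3 (0.998), ASRGL1 (0.997), TACC2 (0.997), UTF1 (0.997) and a probe of an unnamed transcript cluster (0.996), and 38 probes in all were above 0.99. HAS3, a hyaluronan synthase, went from 1300 in mock cells to 89.6, 609 and 76.7 with OCT4, NANOG and SOX2 silenced, as geometric means. UTF1, a chromatin protein of undifferentiated cells, went from 3480 to 229, 1810 and 147.

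For TDGF1 the closest were CACHD1 (0.998), LOC338759 (0.998), L1TD1 (0.997), ZNF875 (0.996) and NASP (0.996). L1TD1, an RNA-binding protein of undifferentiated cells, went from 15800 in mock cells to 5800, 13700 and 5220. For LEFTA they were IDH2 (0.998), RGL1 (0.997), LOXL2 (0.997), SULF2 (0.997) and TMEM132A (0.996), all higher in each knock-down and highest with OCT4 or SOX2 silenced. LOXL2, an enzyme that crosslinks collagen, went from 638 to 2240, 1060 and 2270, and IDH2, a mitochondrial isocitrate dehydrogenase, from 984 to 4110, 1850 and 4290. The change of LEFTA was larger than that of any of these.

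The common FST probe had fewer close matches, with 3 probes above 0.99. Among its closest were FEZ1 (0.991), NHERF1 (0.991), PLPP1 (0.99) and a probe without a name here (0.99). FEZ1, a protein of axon growth, went from 687 in mock cells to 186, 2480 and 181, lower with OCT4 or SOX2 silenced and higher with NANOG silenced, as FST was. For FST317 no probe was above 0.99, and the closest were SYNDIG1 (0.967), DGAT2 (0.964), LOC388326 (0.962), SOBP (0.959) and NAV2 (0.958).

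**Figure D4:**
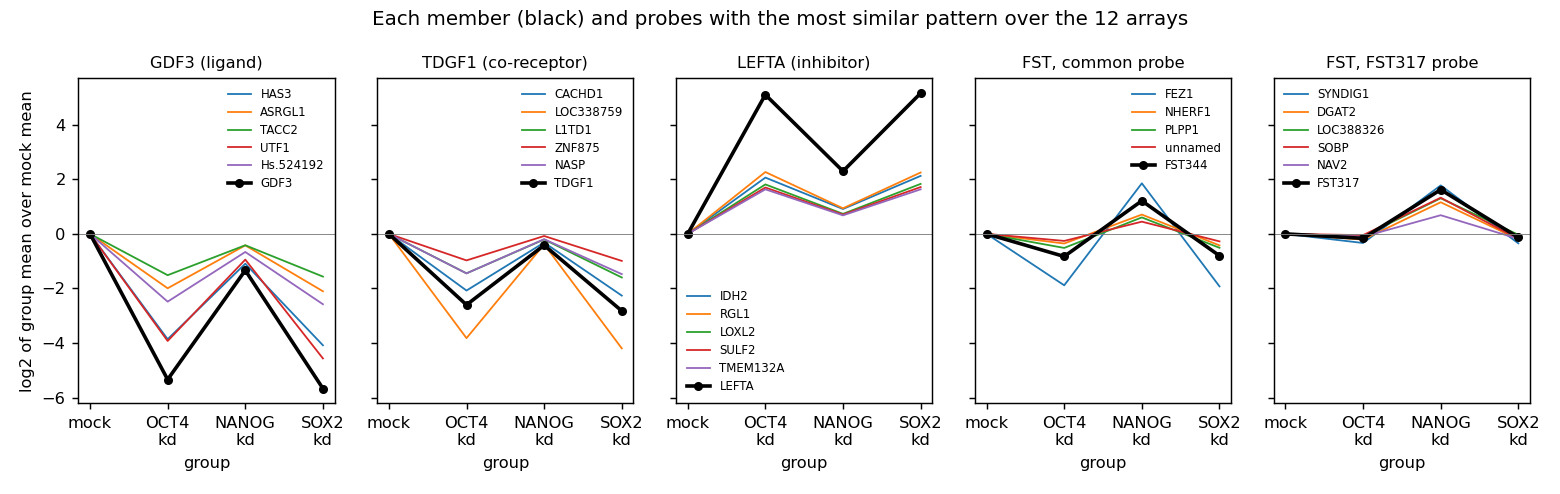
Log2 of the group mean over the mock mean for each member (black) and its most correlated probes (coloured lines; 4 for the common FST probe, 5 for the others) in the 4 groups. The lines share their shape and differ in size, and only the FST panels have their highest point in the NANOG knock-down.

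Markers of cell state moved with the members. A marker could be named only where the study had listed it as changed with OCT4 or NANOG silenced on these arrays, so the counts below were partly fixed by the naming and stand beside the 24.3%, 8.63% and 23.6% of all probes called with OCT4, NANOG and SOX2 silenced. The filter adds to this, since a marker detected in only some groups passed through the groups where it was high. Of 12 genes that mark embryonal carcinoma cells 11 could be named, and their 12 probes were called lower in 12 of 12 cases with OCT4 silenced, 7 with NANOG silenced and 11 with SOX2 silenced. Their summed normalised intensity was 22400 to 23200 in mock cells, 6180 to 6970 in the OCT4 knock-down, 16700 to 18200 in the NANOG knock-down and 6050 to 6350 in the SOX2 knock-down. Such a sum is weighted to the brightest probes, here one of DNMT3B (8040 in mock cells), LIN28 (3770) and UTF1 (3480). All 12 probes were detected in mock cells, whereas NANOG and PRDM14 were not detected in the OCT4 knock-down, nor NANOG, POU5F1, PRDM14 and ZNF206 in the SOX2 knock-down. Of 8 mesoderm and smooth muscle markers 5 could be named, and all 5 were called higher with OCT4 or SOX2 silenced and 1 with NANOG silenced. COL1A1, MSX1 and RUNX1 were not detected in mock cells and passed the filter through knock-downs, so a higher call was favoured for them. The summed level of the 5 was 166 to 207 in mock cells, 3240 to 4030 with OCT4 silenced, 238 to 283 with NANOG silenced and 3580 to 4530 with SOX2 silenced. TAGLN made up most of the OCT4 and SOX2 sums, at 68.3, 2690, 126 and 3010 in the mock, OCT4, NANOG and SOX2 groups. Of 8 trophoblast markers 2 could be named, HAND1 and GATA3, whose sum was 652 to 736, 5440 to 5550, 1960 to 2440 and 4440 to 5080 in the mock, OCT4, NANOG and SOX2 groups. HAND1 made up most of that sum and was called higher in all 3 knock-downs, whereas GATA3 was called higher with OCT4 silenced (0.63), lower with NANOG silenced (-0.65) and not called with SOX2 silenced (0.47). The study lists HAND1 among mesoderm markers, while also linking it to trophoblast differentiation. It reports no significant array expression of CDX2, KRT7, CSH1 or HCG in any knock-down. By real-time PCR, which it calls more sensitive, it found CDX2 and KRT7 transiently raised at day 2 in NCCIT cells with OCT4 silenced. A significant rise of HCG at a later day was not found. The ectoderm list of 5 genes gave only NES, at 208 to 242, 958 to 989, 417 to 522 and 1010 to 1260, and none of the 7 endoderm markers had a name. Of 5 interferon response genes 2 could be named, and ISG15 averaged 193 in mock cells and 564, 180 and 593 in the knock-downs, whereas IFIT1 averaged 22.4 and 28.5, 64 and 22.6. IFIT1 was detected on no mock, OCT4 or SOX2 array, so it passed the filter only through the NANOG knock-down. These are whole cultures, in which fewer cells of a type and less RNA per cell cannot be told apart, and the part of these markers in the members' changes was not tested.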

How the data were processed

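Total RNA of NCCIT cells was amplified, labelled with Cy3 and hybridised to Illumina bead arrays, 12 in all, 3 for each of mock cells and the OCT4, NANOG and SOX2 knock-downs. The groups were taken from the sample titles. Per the file headers, the authors deposited for every probe a mean bead signal intensity without background subtraction, a bead standard deviation (here a score, not used) and a detection value as a fraction, where 1 is detected. The authors made these with BeadStudio 1.0. The authors also deposited a table of group mean intensity, which their methods describe as background-subtracted and rank-invariant normalised, with low values set to a floor of 20, although some of the deposited means are lower.

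From the raw signals, background was corrected by limma 3.58.1 in R 4.3.3 (neqc: normexp from the detection values, offset of 16, quantile normalisation, log2). Probes with a detection value of at least 0.99 on all 3 arrays of 1 or more groups were kept, and 4 control probes were left out. A linear model of 4 groups over all 12 arrays was fitted with lmFit and eBayes, and p-values were adjusted by Benjamini-Hochberg over all 12374 probes kept. Calls needed an adjusted p under 0.01 and a change of at least 1.5-fold. The study's methods give the same limits, but name no adjustment and require them by both a t-test and an Illumina model. That Illumina model was not run here. The fit was tested on simulated data. The number of arrays limits the precision, and the intervals are 95%.

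The files name probes only by identifier. Names came from the study's list of changed genes, of which the OCT4 part and a portion of the NANOG part were used, so 2985 probes were named, 2481 of them matched to a RefSeq accession. Genes outside that list were not analysed here. The columns of that list with ratios and p-values were not used. The members, the gene lists and the tests were chosen with earlier results of these data known. Named with values were all member probes, LEFTB, the targeted genes, the pathway genes called in 1 or more knock-downs, and, for each member probe, the 5 other probes of highest Pearson correlation over the 12 arrays, of which 1 is not reported here. Genes named from the marker lists followed those lists, and the examples given among the most correlated probes were chosen after their values were seen.

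Alternatives covered the background treatment, floors of 10, 20 and 50, median and rank-invariant scaling, the filter, the arrays in the fit, the replicate number as a block, each array left out, the equal-variance test of the study's methods, a looser call rule and the authors' mean intensity ratios. The replicate numbers in the file headers were checked for pairing. Same-numbered arrays of different groups had deviations that correlated at -0.30 to 0.31 (median -0.03, 18 pairs), so the numbers were not taken to pair the cultures.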

Additional observations from a re-analysis of the deposited data

Results flagged for a closer look

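FST differed in direction between knock-downs. The common FST probe was lower by 2.04 on the log2 scale with OCT4 silenced than with NANOG silenced (difference -2.04, limma adjusted p = 6.89e-10). It was also lower with SOX2 silenced than with NANOG silenced (-2.01, limma adjusted p = 7.54e-10). After normalisation, though not in the raw signals for OCT4, all 3 arrays of the NANOG knock-down lay above mock and all 3 arrays of each of the other knock-downs lay below it. Such non-overlap with mock, in either direction, held for 44.1%, 63.6% and 59.8% of all probes tested with NANOG, OCT4 and SOX2 silenced.

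The FST317 probe stood at -1.78 for OCT4 minus NANOG knock-down and at -1.74 for SOX2 minus NANOG knock-down. These are given as a description, since the probe was among those tested only because the NANOG knock-down detected it on all 3 arrays. For this probe the OCT4 and SOX2 knock-downs were not called against mock.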

How the results depend on the processing

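All 22 comparisons in which a member probe was called kept their call and direction without any 1 of the 12 arrays. These comparisons share arrays and are not independent of each other. They include those of FST317, which entered through the NANOG knock-down, and those of LEFTA against mock, where the filter favoured a difference. Of 735 member results under the alternatives, 715 were counted as the same. For fits with a test this meant that direction and side of the threshold were kept. A difference with both groups at the floor has no direction and was counted as keeping it. For ratios of the authors' means, which have no test, it meant a value within the spread between arrays. The log2 change of GDF3 ranged from -5.63 to -5.34 in the OCT4 knock-down and from -6.04 to -5.65 in the SOX2 knock-down, and that of LEFTA from 4.90 to 5.68 and from 4.95 to 5.77, over the alternatives that kept all arrays. LEFTA and FST317 drop out when detection on all 12 arrays is required. TDGF1 in the NANOG knock-down (-0.42) passed only with an adjusted p under 0.05 and no minimum fold. FST317 in the OCT4 knock-down passed with median scaling (-0.61), and in the NANOG knock-down it did not pass the equal-variance test of the study's methods after Benjamini-Hochberg (2.05, adjusted p = 0.0317). The causes were not tested.

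Small differences changed sign when 1 array was left out: FST317 ranged from -0.35 to 0.06 in the OCT4 knock-down, from -0.32 to 0.10 in the SOX2 knock-down and from -0.17 to 0.07 between them, the common FST probe ranged from -0.07 to 0.02 between them, and SMURF2 ranged from -0.20 to 0.01 in the NANOG knock-down. Ratios of the authors' means, which have no test, moved by more than the spread between arrays for GDF3 (-5.63, -1.44 and -5.99 with OCT4, NANOG and SOX2 silenced), TDGF1 in the OCT4 knock-down (-2.77) and LEFTA (5.66, 2.73 and 5.77). They moved likewise between knock-downs for LEFTA (2.93 for OCT4 minus NANOG and 3.04 for SOX2 minus NANOG) and FST317 (-2.44, -2.10 and, for OCT4 minus SOX2, -0.34).

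The number of probes called was 3005, 1068 and 2919 with OCT4, NANOG and SOX2 silenced. Requiring detection on all 12 arrays, which leaves 9899 probes, gave 2001 for OCT4 and 680 for NANOG, and the adjusted equal-variance test gave 283 for NANOG. With an adjusted p under 0.05 and no minimum fold the counts were 6998, 3785 and 6825, and 6426 and 6354 for the OCT4 and SOX2 knock-downs against the NANOG knock-down. Between the OCT4 and SOX2 knock-downs the count of 0 became 3 with median scaling, 3 with rank-invariant scaling, 1 with a floor of 50, 2 with only these groups in the fit, 40 by the unadjusted equal-variance test, 1 by the adjusted one, and 0 to 3 without 1 array. With the replicate number as a block, 2992, 1048 and 2899 probes were called in the 3 knock-downs, and no member call changed. The files name no slide, so a slide block was not run.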

Other observations

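The authors' own group means, which carry no spread, gave the same order of groups for the members. GDF3 was listed at 2850 in mock cells and at 57.4, 1050 and 45 with OCT4, NANOG and SOX2 silenced, and TDGF1 at 6010, 879, 4220 and 792. LEFTA was listed at 23.8, 1200, 158 and 1300 and the common FST probe at 306, 175, 728 and 184. FST317 was listed at 21.1, 15.3, 82.8 and 19.3, and LEFTB at 51.7, 23.1, 28.8 and 36.4.

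GDF3 and NANOG lie near each other on chromosome 12 in the RefSeq annotation, and both fell in all 3 knock-downs. In the NANOG knock-down the log2 change was -1.33 for GDF3 and -1.85 for the targeted NANOG mRNA.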
